A study of Mus musculus with 2 samples.

Results

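Potassium channels that stay open near the resting potential set the membrane voltage of adrenal cortical cells. Here 8 potassium channel genes, not all of this kind, were followed through the steroid-making cells of the male mouse adrenal. They were taken by symbol, with earlier results of these data known, and each symbol was carried by 1 of the 31057 counted features. The set holds 5 two-pore-domain genes (Kcnk1, Kcnk2, Kcnk3, Kcnk6 and Kcnk9) and 3 others (Kcnn2, Kcnma1 and Kcnq3). All cells came from adrenal glands of male mice of genotype WT, SF1-Cre; Rosa mTmG, aged 15 weeks. SF1-Cre is active in the steroidogenic lineage, and Rosa mTmG is a reporter in which Cre replaces membrane Tomato with membrane GFP. The study took 26 adrenals, sorted live cells with a DNA dye and a viability stain, and made 2 droplet libraries (3′ kit version 3.1) that carry the same labels. These are called library 1 and library 2, replicates of a single group. No gate on GFP is named in the labels, and which animals went into which library is not stated there. P-values below therefore measure only how much differences between cell groups vary from library to library, which may be technical. A shift of a gene between the libraries in all groups is taken out, except where a fit is said to lack the library term.

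Two-pore-domain channels pass potassium at rest with little dependence on voltage and hold the membrane near the potassium equilibrium potential. In zona glomerulosa cells, which make aldosterone with the enzyme encoded by Cyp11b2, angiotensin II and a rise in external potassium depolarise the membrane, calcium enters through voltage-gated channels, and aldosterone output rises. Kcnk3 and Kcnk9 encode TASK-1 and TASK-3, channels closed by external acid and by signalling through Gq-coupled receptors. Zona fasciculata cells make corticosterone with the enzyme encoded by Cyp11b1 and are driven by ACTH. Kcnk2 encodes TREK-1, a channel opened by stretch and by fatty acids, and Kcnk1 and Kcnk6 encode the related TWIK channels. Kcnma1 and Kcnn2 encode calcium-activated channels of large and small conductance, and Kcnq3 a subunit of the slow M-type current.

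The selectivity filter is what makes these proteins potassium channels, so its coding sequence is shown for 5 members. Sequences are from GENCODE vM21 transcripts on build mm10, on the coding strand, and the capitals mark an in-frame run of 5 codons of which the first begins with AC, the next is free, then 1 begins with GG, 1 with T and the last again with GG. A two-pore-domain protein has 2 pore loops in 1 chain, and a chain with a single loop has 1 filter.
Kcnk3 first: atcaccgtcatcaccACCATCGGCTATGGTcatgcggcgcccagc
Kcnk3 second: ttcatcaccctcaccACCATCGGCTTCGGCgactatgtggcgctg
Kcnk9 first: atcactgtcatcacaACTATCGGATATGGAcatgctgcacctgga
Kcnk9 second: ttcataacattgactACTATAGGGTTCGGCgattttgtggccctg
Kcnk2 first: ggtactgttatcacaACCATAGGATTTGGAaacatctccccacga
Kcnk2 second: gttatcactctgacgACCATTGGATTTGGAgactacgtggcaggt
Kcnk1: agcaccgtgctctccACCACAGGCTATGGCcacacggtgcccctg
Kcnma1: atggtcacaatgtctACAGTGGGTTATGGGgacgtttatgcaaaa

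In Kcnk3 and in Kcnk9 the matches lay at the same coding bases, 277 to 291 and 595 to 609, and the coding sequences were identical at 71.5% of 1146 aligned base pairs. The codon pattern was searched on the coding strand only. It occurred in 521 of 21584 mouse coding sequences (2.41%), and at least 2 matches occurred in 28 of them (0.130%). Of 14 Kcnk coding sequences, 11 had at least 2. Kcnk1 and Kcnk6 had 1 match each, which says only that their other loop is written with other letters. Kcnn2 had none, and its sequence is not shown.

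On mm10 with GENCODE vM21, Kcnk9 (ENSMUSG00000036760) lies on chromosome 15 from 72501089 to 72546340 on the minus strand. Kcnq3 (ENSMUSG00000056258) lies on chromosome 15 from 65986387 to 66286642 on the minus strand. Kcnk3 (ENSMUSG00000049265) lies on chromosome 5 from 30588170 to 30625271 on the plus strand. Kcnk1 (ENSMUSG00000033998) spans chromosome 8 from 125995170 to 126030685 on the plus strand, and Kcnk2 (ENSMUSG00000037624) spans chromosome 1 from 189207930 to 189402273 on the minus strand. Kcnk6 (ENSMUSG00000046410) spans chromosome 7 from 29221926 to 29232515 on the minus strand. Kcnma1 (ENSMUSG00000063142) spans chromosome 14 from 23289431 to 24014491 on the minus strand, and Kcnn2 (ENSMUSG00000054477) spans chromosome 18 from 45268860 to 45686024 on the plus strand. Antisense features that were also counted overlap exons of Kcnk1 (Gm45875), Kcnk2 (A430027H14Rik) and Kcnn2 (A330093E20Rik). The labels do not say whether counting used strand, so the values of these 3 genes may hold antisense reads.

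Library 1 held 92905273 UMIs (unique molecular identifiers, 1 per captured transcript) in 5040 barcodes and library 2 held 28023733 in 2288. The libraries shared 4 barcodes. After filtering, 4374 and 1601 cortical cells of at least 5000 UMIs were grouped by their own level of 3 enzymes in CPM, the UMIs of a gene scaled to a fixed total per cell. Cells with at least 500 CPM of Aldh1a1, a marker of the innermost cortex, were called Aldh1a1-high (28 cells in library 1 and 26 in library 2). Of the rest, cells with at least 200 CPM of both Cyp11b2 and Cyp11b1 were co-expressing (44 and 24), and other cells with at least 200 CPM of Cyp11b2 were Cyp11b2-high (461 and 222). Remaining cells with at least 1000 CPM of Cyp11b1 were Cyp11b1-high (432 and 261), those from 200 to under 1000 were intermediate (611 and 186), and all others were low in both (2798 and 882).

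Markers of the zones were compared between the groups, and not all followed the enzymes. Vsnl1 and Dab2, glomerulosa markers that did not define the groups, stood at 776 and 1832 CPM in Cyp11b2-high cells of library 1 against 142 and 774 CPM in Cyp11b1-high cells. Cells low in both had 513 CPM of Vsnl1 and 1463 CPM of Dab2 in library 1, nearer to the Cyp11b2-high cells. The glomerulosa marker Agtr1b was at 56.6 and 83.8 CPM in cells low in both of libraries 1 and 2. It was at 118 and 177 CPM in Cyp11b2-high cells and at 16.3 and 20.8 CPM in Cyp11b1-high cells. Cells low in both were thus nearer to Cyp11b1-high cells by difference in CPM and nearer to Cyp11b2-high cells by ratio. The glomerulosa marker Wnt4 was at 2380 and 2167 CPM in cells low in both, against 2274 and 1839 CPM in Cyp11b2-high cells. In Cyp11b1-high cells Wnt4 was at 1395 and 1118 CPM. The glomerulosa marker Hsd3b6 did not keep 1 direction, with 215 and 270 CPM in Cyp11b2-high cells of libraries 1 and 2 against 235 and 158 CPM in Cyp11b1-high cells. The fasciculata marker Akr1b7 did not either, with 1660.1 and 1519 CPM against 1358 and 1891 CPM, and it was lowest in Aldh1a1-high cells, at 717 and 221 CPM. Abcb1b, a fasciculata marker, was at 4659 and 8301 CPM in Aldh1a1-high cells of libraries 1 and 2 against 133 and 222 CPM in Cyp11b1-high cells. Srd5a2, an inner-cortex marker, was at 417 and 553 CPM in Aldh1a1-high cells, while Akr1c18 and Pik3c2g of the same list were at 0. Across all cortical groups the summed level of 12 leukocyte markers was at most 40.5 CPM, of 6 endothelial markers at most 19.7 CPM, of 6 stromal markers at most 1.8 CPM and of 5 chromaffin markers at most 0.7 CPM. The defining chromaffin genes Th and Dbh were at 0 in every cortical group, and Ptprc, the pan-leukocyte gene, was at most at 0.24 CPM. The 6 steroidogenic markers summed to between 15397 and 26004 CPM.

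UMIs were summed per group and library, and 11661 genes were tested in 1 edgeR quasi-likelihood model with Benjamini-Hochberg adjustment, without the 3 grouping enzymes. Of the 8 channel genes 7 could be tested. Between Cyp11b2-high and Cyp11b1-high cells, Kcnk9, Kcnq3 and Kcnk2 were higher on the Cyp11b2 side and Kcnk1 was lower, so 4 of 7 passed the threshold of 0.05, where 33.7% of all genes did. At least 2-fold changes that passed the test were seen for all 4, against 9.78% of all genes, and the median absolute log2 difference was 1.12 over the 7 genes, 1.17 over 17 other tested Kcn genes and 0.25 over all genes. Between Aldh1a1-high and Cyp11b1-high cells, Kcnk2 was higher and Kcnk3, Kcnk9 and Kcnn2 were lower, 4 of 7 against 14.7% of all genes. DESeq2 split all calls of that comparison into 1135 higher and 576 lower, where edgeR split them into 914 and 795. Between cells low in both and Cyp11b2-high cells, Kcnk1 was higher and Kcnk2 and Kcnq3 were lower, 3 of 7 against 13.7% of all genes. Between intermediate and Cyp11b1-high cells, Kcnk9, Kcnq3 and Kcnma1 were higher and Kcnk1 was lower, 4 of 7 against 10.9% of all genes. Between co-expressing and Cyp11b2-high cells none of the 7 passed (0.0686% of all genes did), 1 of the 7 had an unadjusted p under 0.05 in edgeR, and DESeq2 also called 0. In all, 15 of 35 differences passed, and all 15 had the same sign in each library alone. These comparisons share groups and so are not independent of each other.

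**Figure D1:**
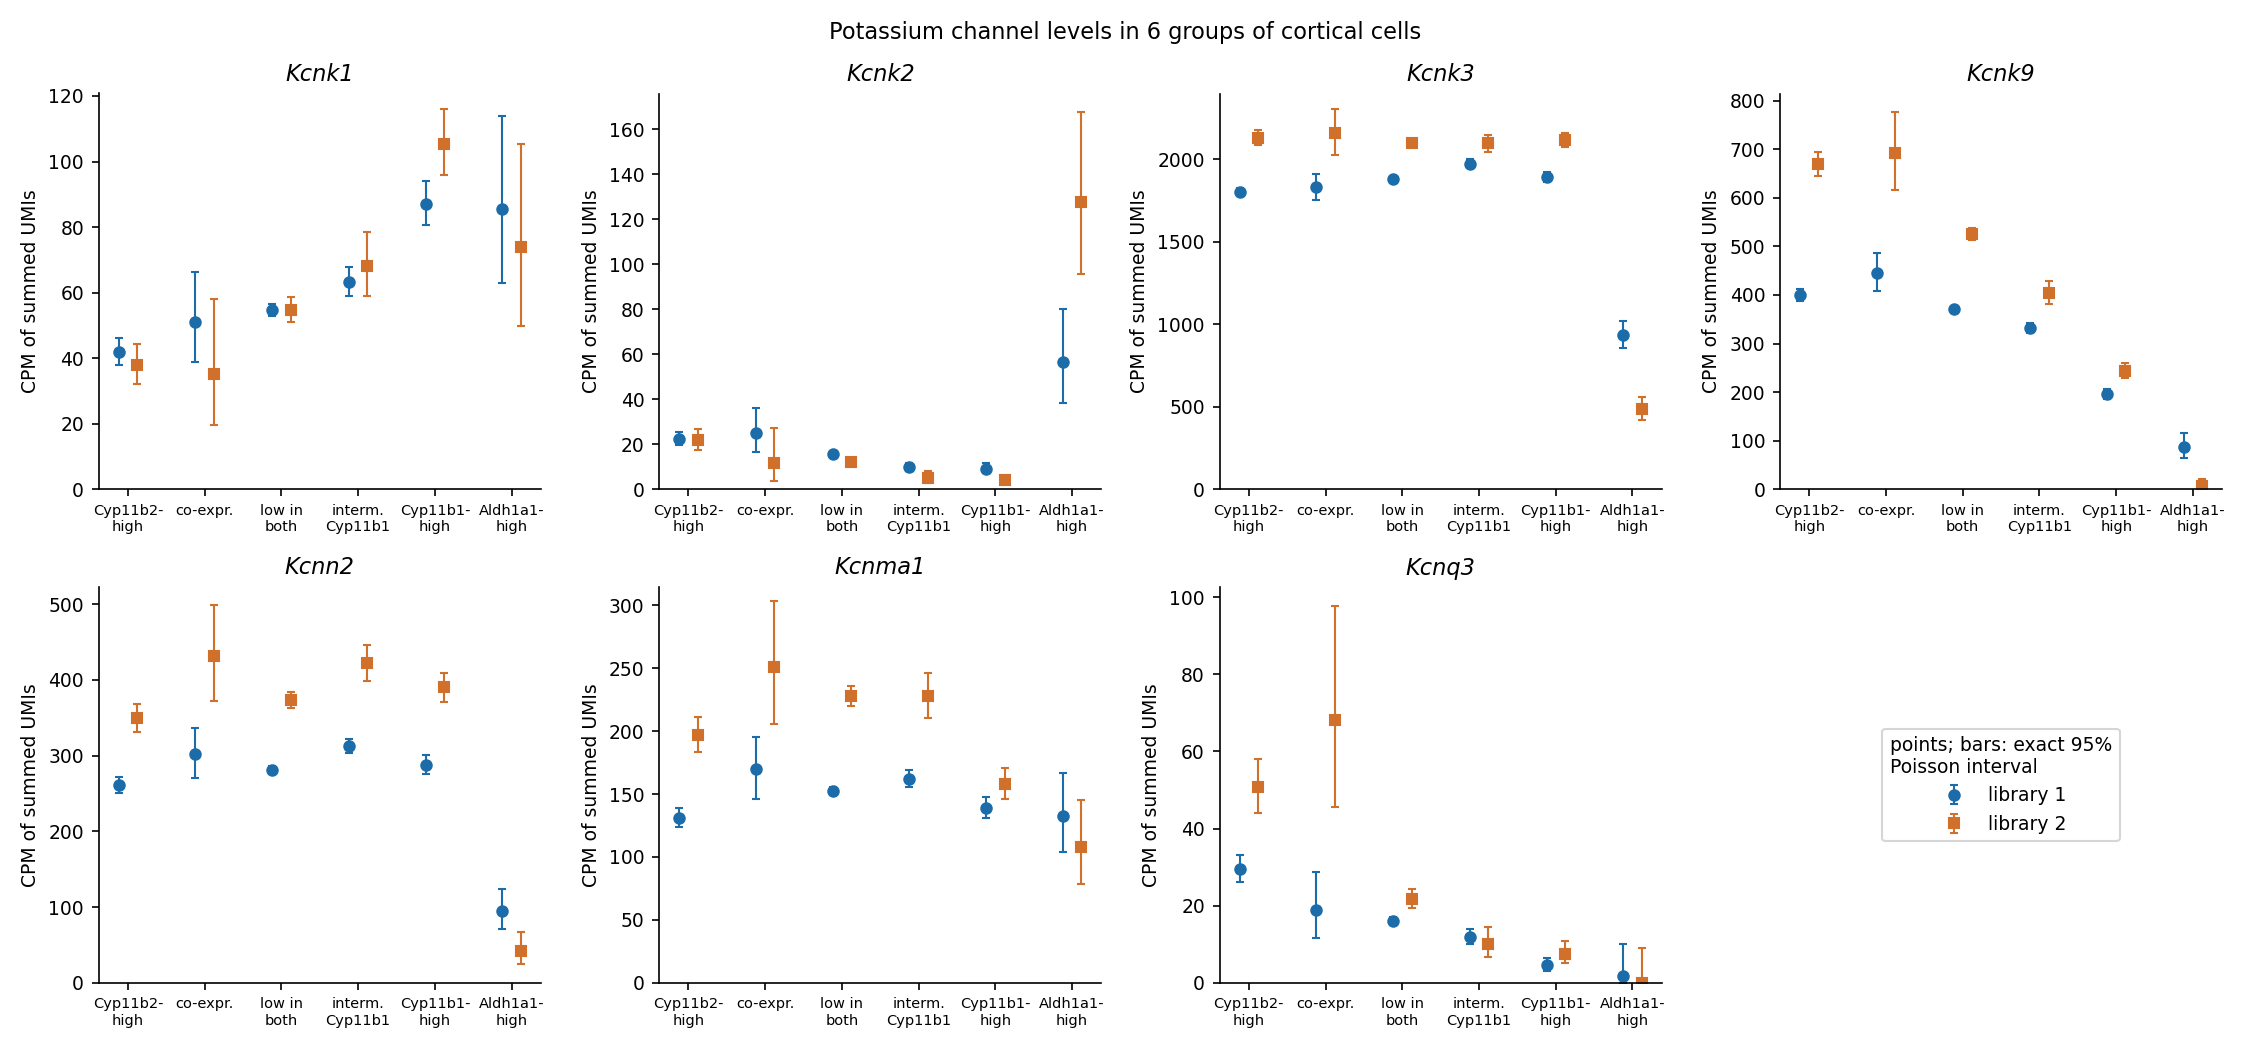
Level of each detected channel gene (vertical axis, CPM of summed UMIs, from 0) in 6 groups of cortical cells, with circles for library 1, squares for library 2 and bars for the exact 95% Poisson interval. Kcnk9 and Kcnq3 stand lower in the Cyp11b1-high than in the Cyp11b2-high cells of each library and Kcnk1 stands higher, while Kcnk3 stays between 1800.4 and 2159 CPM outside the Aldh1a1-high group.

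Kcnk9, the TASK-3 subunit, followed the axis between the zones. Its level was 399 CPM in Cyp11b2-high cells of library 1 and 669 CPM in those of library 2. In cells low in both it was 370 and 525 CPM (library 1 and library 2, as in every pair of values from here), and in intermediate cells 332 and 404 CPM. In Cyp11b1-high cells it was 196 and 243 CPM. Library 2 was the higher library in each of these groups, and within each library the order of the 4 groups was the same. Across both libraries the Cyp11b2-high and Cyp11b1-high values did not overlap. The fitted log2 difference between them was 1.33 ± 0.12 (SE, n = 2 libraries, edgeR adjusted p = 1.04e-08), a 2.51-fold higher level. Intermediate cells exceeded Cyp11b1-high cells by 0.76 ± 0.12 on the log2 scale (edgeR adjusted p = 0.000192). Cells low in both differed from Cyp11b2-high cells by -0.28 ± 0.11, which did not pass (edgeR adjusted p = 0.0888).

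In Aldh1a1-high cells Kcnk9 was at 87.4 CPM in library 1 (48 UMIs in 28 cells) and 7.4 CPM in library 2 (3 UMIs in 26 cells). These were its lowest values among the cortical groups of each library. The log2 difference from Cyp11b1-high cells was -1.98 ± 0.34 (edgeR adjusted p = 0.000261), and it was -1.19 in library 1 alone and -4.88 in library 2 alone. From the UMI counts of library 2, Cyp11b1-high cells had 33.0 times the level of Aldh1a1-high cells, with a 95% counting interval of 11.3 to 160 times. A split of the group at 2000 CPM of Aldh1a1, made after the data were seen, placed 42 of the 48 UMIs of library 1 in the 12 cells below that level, at 162 CPM, and 6 UMIs in the 16 cells above it, at 20.7 CPM. With the cells below 2000 CPM left out the fitted log2 difference was -3.98 (edgeR adjusted p = 6.46e-09). The Kcnk9 calls depended on the model. DESeq2 gave adjusted p = 0.215 for Cyp11b2-high against Cyp11b1-high cells, 0.0665 for Aldh1a1-high against Cyp11b1-high cells and 0.762 for intermediate against Cyp11b1-high cells, and edgeR without the library term gave 0.143, 0.0686 and 1.00. With the Aldh1a1-high sums left out of the fit, DESeq2 gave adjusted p = 2.37e-26 for the first of these and 1.32e-07 for the last.

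Kcnk3, the TASK-1 subunit, did not follow that axis. Its level was 1800.4 and 2130.4 CPM in Cyp11b2-high cells, 1877 and 2095 CPM in cells low in both, and 1893 and 2115 CPM in Cyp11b1-high cells. In these unscaled values library 2 was the higher in each group. The log2 difference between Cyp11b2-high and Cyp11b1-high cells was 0.06 ± 0.14 (edgeR adjusted p = 0.769), with a 95% interval from -0.23 to 0.36. In Aldh1a1-high cells Kcnk3 was at 934 and 487 CPM, below every other cortical group of either library. The log2 difference from Cyp11b1-high cells was -1.43 ± 0.16 (edgeR adjusted p = 1.69e-06), -1.04 in library 1 alone and -2.00 in library 2 alone. For Kcnk9 the interval of the difference between Cyp11b2-high and Cyp11b1-high cells ran from 1.08 to 1.58, and the difference between the 2 genes was not itself tested.

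Cell by cell, Kcnk3 was close to universal. After every cell was thinned to 5000 UMIs, at least 98.4% of the cells had a Kcnk3 UMI in each of the other cortical groups, except 95.8% of the 24 co-expressing cells of library 2. In the Aldh1a1-high group the share was 78.6% and 80.8%. In leukocyte-like cells, which give a background share, it was 12.5% of 40 cells and 6.9% of 29 cells. There 47 Kcnk3 UMIs lay in 5 cells of library 1 and 40 in 2 cells of library 2, and whether they came from free RNA or from mixed droplets was not tested. For Kcnk9 the thinned share was 77.0% and 88.3% in Cyp11b2-high cells, 49.3% and 49.0% in Cyp11b1-high cells, and 17.9% and 3.8% in Aldh1a1-high cells. The leukocyte background for Kcnk9 was 5.0% and 3.4%, so the 3.8% of library 2 is not above it. Unthinned, the Kcnk9 shares were 95.4% and 98.6% in Cyp11b2-high cells against 73.4% and 73.6% in Cyp11b1-high cells and 5.0% and 6.9% in leukocytes. Median depths were 21034 and 18928 UMIs, 16862 and 15514 UMIs, and 8129 and 7333 UMIs. Kcnk9 per cell had a median of 343 CPM in Cyp11b2-high cells of library 1 with quartiles of 201 and 520 CPM, and a median of 123 CPM in Cyp11b1-high cells with quartiles of 0 and 255 CPM. After thinning, 76.8% of Cyp11b2-high cells of library 1 had UMIs of both Kcnk9 and Kcnk3, and the product of the single shares was also 76.8%. In Cyp11b1-high cells of library 1 the joint share was 48.6% against a product of 48.5%. With Kcnk3 in nearly every cell the joint share and the product must be close, so they cannot show whether the genes go together.

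**Figure D2:**
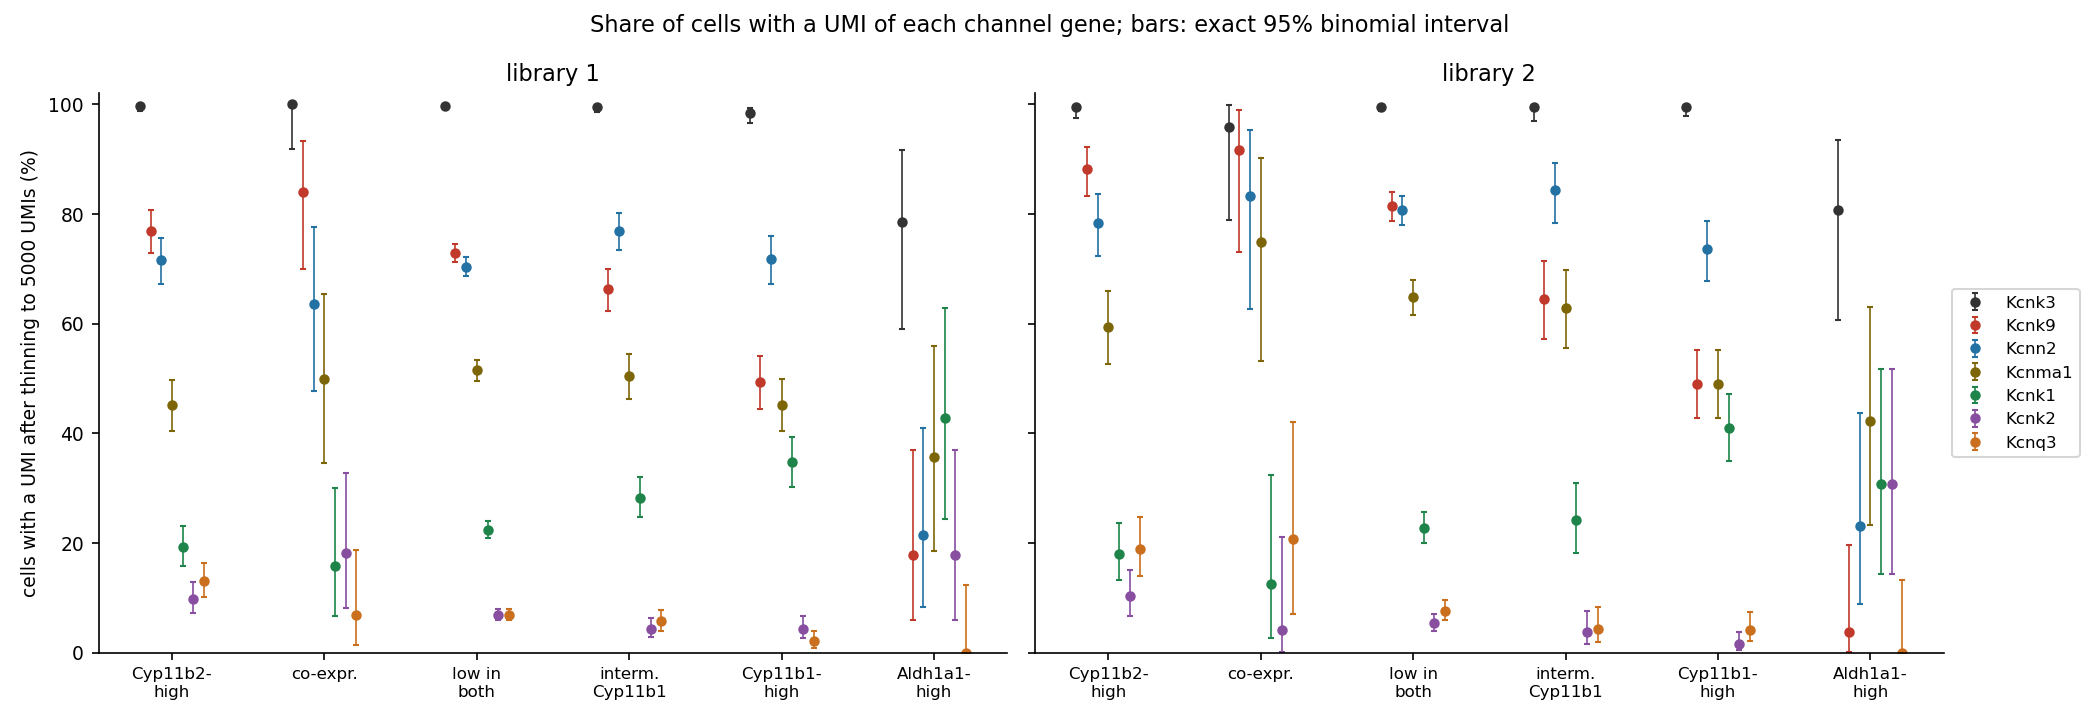
Percentage of cells with at least 1 UMI of each channel gene after every cell was thinned to 5000 UMIs (vertical axis) in 6 groups of cortical cells, 1 panel per library, with exact 95% binomial intervals that cover counting error only. Kcnk3 stays near the top except in Aldh1a1-high cells, and Kcnk9 runs from 77.0% and 88.3% in Cyp11b2-high cells to 49.3% and 49.0% in Cyp11b1-high cells.

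Kcnk1, the TWIK-1 channel, ran opposite to Kcnk9. Its level was 42.0 and 37.9 CPM in Cyp11b2-high cells, 54.7 and 54.8 CPM in cells low in both, 63.4 and 68.2 CPM in intermediate cells, and 87.0 and 105 CPM in Cyp11b1-high cells. The 4 groups kept this order in each library, and no value of one group reached into the next. The log2 difference between Cyp11b2-high and Cyp11b1-high cells was -1.12 ± 0.10 (edgeR adjusted p = 1.15e-08). Cells low in both exceeded Cyp11b2-high cells by 0.38 ± 0.09 (edgeR adjusted p = 0.00754, and 0.0579 in DESeq2, 0.138 after thinning and 0.971 without the library term). Intermediate cells stood below Cyp11b1-high cells by a log2 difference of -0.53 ± 0.09 (edgeR adjusted p = 0.000549, and 0.581 without the library term). Aldh1a1-high cells, at 85.6 and 73.8 CPM, differed from Cyp11b1-high cells by -0.20 ± 0.19 (edgeR adjusted p = 0.569). The thinned share of cells with Kcnk1 was 19.3% and 18.0% in Cyp11b2-high cells and 34.7% and 41.0% in Cyp11b1-high cells, and 0% in leukocytes of both libraries, which allows a share of up to 7.50% and 10.3%.

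Kcnk6, the other TWIK member, had 0 UMIs in all 5975 grouped cortical cells, which allows a share of up to 0.0502% of cells with a UMI. It was removed by the low-count filter and not tested. The 9 Kcnk6 UMIs of the grouped cells all lay in leukocyte-like cells, in 9 of 69 such cells.

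Kcnk2, the TREK-1 channel, was low in most of the cortex and highest in the Aldh1a1-high cells taken as a whole. It was at 22.4 and 21.8 CPM in Cyp11b2-high cells, 15.6 and 12.1 CPM in cells low in both, 9.9 and 4.8 CPM in intermediate cells and 9.1 and 3.9 CPM in Cyp11b1-high cells. In Aldh1a1-high cells it was at 56.4 and 128 CPM, above every other group in each library. The log2 difference of Aldh1a1-high from Cyp11b1-high cells was 3.66 ± 0.40 (edgeR adjusted p = 8.74e-07), 2.59 in library 1 alone and 5.06 in library 2 alone. It rests on 31 UMIs in 28 cells and 52 UMIs in 26 cells, of which a single cell of library 2 gave 18. The split at 2000 CPM of Aldh1a1 placed 28 of the 31 UMIs of library 1 in 16 cells above, at 96.5 CPM. The 12 cells below had 3 UMIs, at 11.6 CPM with a counting interval of 2.4 to 33.8 CPM. This interval covers the library 1 levels of Cyp11b2-high and Cyp11b1-high cells. In library 2 the 3 cells below had 1 UMI, too few to place, and the 23 cells above had 51, at 141 CPM. Kcnk2 was also higher in Cyp11b2-high than in Cyp11b1-high cells, by 1.72 ± 0.28 (edgeR adjusted p = 5.28e-05, and 0.0618 without the library term), 1.39 in library 1 alone and 2.48 in library 2 alone. Cells low in both were below Cyp11b2-high cells by a log2 difference of -0.67 ± 0.19 (edgeR adjusted p = 0.0228, and 0.0530 with doubled thresholds, 0.0600 after thinning, 0.456 in DESeq2 and 1 without the library term). The thinned share of cells with Kcnk2 was 17.9% and 30.8% in Aldh1a1-high cells, 9.76% and 10.4% in Cyp11b2-high cells, and 4.40% and 1.53% in Cyp11b1-high cells. No leukocyte had a Kcnk2 UMI (0 of 69, which allows a share of up to 4.35%). The thinned shares of Aldh1a1-high and Cyp11b2-high cells of library 1 have intervals that overlap (6.06% to 36.9% and 7.21% to 12.8%).

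**Figure D3:**
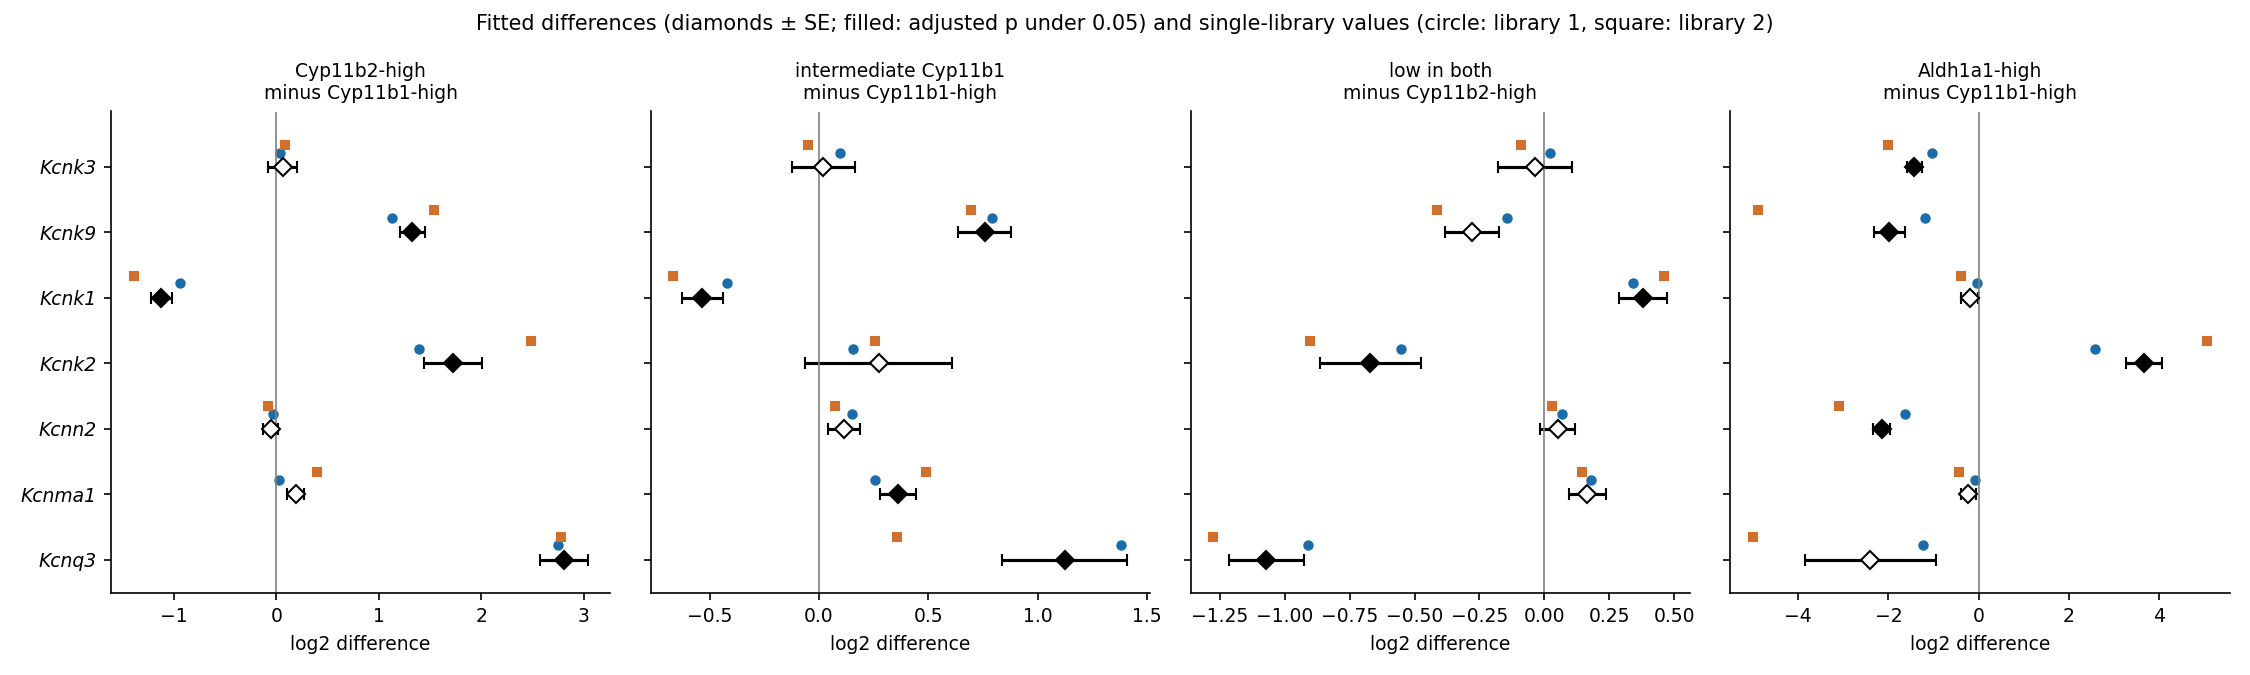
Log2 differences of the 7 tested channel genes (rows) in 4 comparisons (panels), with diamonds for the edgeR estimate ± SE, filled where the adjusted p was under 0.05, and small circles and squares for library 1 and library 2 alone. Kcnk9, Kcnk2 and Kcnq3 lie to the right of 0 and Kcnk1 to the left for Cyp11b2-high minus Cyp11b1-high, and Kcnk2 alone lies to the right of 0 for Aldh1a1-high minus Cyp11b1-high, at 3.66.

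The calcium-activated channels did not pass the test between Cyp11b2-high and Cyp11b1-high cells, and Kcnn2 was low in Aldh1a1-high cells. Kcnn2, the small-conductance subunit SK2, was at 261 and 349 CPM in Cyp11b2-high cells and 288 and 390 CPM in Cyp11b1-high cells. The log2 difference was -0.06 ± 0.07 (edgeR adjusted p = 0.607), with a 95% interval from -0.21 to 0.10. In Aldh1a1-high cells Kcnn2 was at 94.7 and 41.8 CPM, the lowest values of any cortical group. Their log2 difference from Cyp11b1-high cells was -2.15 ± 0.18 (edgeR adjusted p = 1.66e-08), -1.62 in library 1 alone and -3.10 in library 2 alone. Kcnma1, the pore-forming subunit of the large-conductance channel, was at 131 and 197 CPM in Cyp11b2-high cells, 162 and 228 CPM in intermediate cells, and 139 and 158 CPM in Cyp11b1-high cells. Intermediate cells exceeded Cyp11b1-high cells by 0.36 ± 0.08 (edgeR adjusted p = 0.00466), a call that was lost with halved thresholds (0.110), after thinning (0.0783), in DESeq2 (0.0553) and without the library term (0.982). Aldh1a1-high cells, at 133 and 108 CPM, differed from Cyp11b1-high cells by -0.23 ± 0.17 (edgeR adjusted p = 0.441). The thinned share of cells with Kcnma1 ran from 35.7% to 75.0% over the cortical groups and libraries, and that of Kcnn2 from 21.4% to 84.4%. In leukocytes these shares were 2.50% and 3.45% for Kcnma1 and 5.00% and 0% for Kcnn2, where 0 of 29 allows up to 10.3%.

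Kcnq3, the M-current subunit, had the largest difference of the 7 genes between Cyp11b2-high and Cyp11b1-high cells. It was at 29.5 and 50.7 CPM in Cyp11b2-high cells, 16.0 and 21.8 CPM in cells low in both, 11.9 and 10.0 CPM in intermediate cells and 4.5 and 7.6 CPM in Cyp11b1-high cells. The order of the groups was the same in both libraries, and the values of neighbouring groups did not overlap. The log2 difference between the first and the last of these groups was 2.81 ± 0.23 (edgeR adjusted p = 2.95e-09). Cells low in both were below Cyp11b2-high cells by a log2 difference of -1.07 ± 0.14 (edgeR adjusted p = 1.45e-05, and 0.361 without the library term). Intermediate cells exceeded Cyp11b1-high cells by 1.12 ± 0.29 (edgeR adjusted p = 0.0126), 1.38 in library 1 alone and 0.36 in library 2 alone. That call was lost with doubled thresholds (0.0567), after thinning (0.413), in DESeq2 (0.138), in DESeq2 without the Aldh1a1-high sums (0.0664) and without the library term (0.772). Aldh1a1-high cells held 1 Kcnq3 UMI, in library 1, against 65 in Cyp11b1-high cells of both libraries, a ratio of 5.37 in level with a 95% counting interval of 0.930 to 215. The thinned share of cells with Kcnq3 was 13.02% and 18.9% in Cyp11b2-high cells against 0% and 3.45% in leukocytes, where 0 of 40 allows up to 7.50%. In Cyp11b1-high cells it was 2.08% and 4.21%, not above that background by more than counting error in either library.

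Cells that expressed both enzymes did not differ detectably from Cyp11b2-high cells in these genes. Co-expressing cells had 446 and 692 CPM of Kcnk9, 1829.5 and 2159 CPM of Kcnk3, 51.1 and 35.2 CPM of Kcnk1, and 18.8 and 68.1 CPM of Kcnq3. The log2 difference of Kcnk9 from Cyp11b2-high cells was 0.00 ± 0.15, with a 95% interval from -0.30 to 0.31. That of Kcnma1 was 0.27 ± 0.13 (edgeR adjusted p = 0.617). The 68 co-expressing cells limit what this comparison could detect.

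When cortical cells were binned by each enzyme instead, Kcnk9 was at 371 and 569 CPM in cells without a Cyp11b1 UMI and at 196 and 225 CPM in cells of at least 1000 CPM of Cyp11b1. Kcnk1 went from 53.1 and 49.0 CPM to 85.4 and 103 CPM between the same bins. In finer bins of the Cyp11b1-high group, made after the data were seen, Kcnk9 did not fall throughout. It was at 220 and 322 CPM from 1000 to under 2000 CPM of Cyp11b1 and at 145 and 166 CPM from 2000 to under 4000. In the 23 and 52 cells of at least 4000 CPM Kcnk9 was at 180 and 264 CPM. Along Cyp11b2, Kcnq3 was at 9.5 and 10.5 CPM in cells without a Cyp11b2 UMI, 20.7 and 35.3 CPM below 200 CPM of Cyp11b2, 27.0 and 44.5 CPM from 200 to under 500, and 37.3 and 70.9 CPM from 500 to under 1000. Kcnk9 went from 305 and 388 CPM without Cyp11b2 to 401 and 603 CPM in the next bin. It was at 408 and 672 CPM from 200 to under 500 and at 400 and 697 CPM from 500 to under 1000. The bin of at least 1000 CPM of Cyp11b2 held 6 and 7 cells, too few to place. Kcnk9 was lower there, at 162 and 423 CPM. The Cyp11b1 bin of at least 1000 CPM includes Aldh1a1-high cells, and Kcnk2 there was at 12.9 and 14.9 CPM against 9.1 and 3.9 CPM in the Cyp11b1-high group without them. Deeper cells hold a detected enzyme more often, and depth was higher in cells with a Cyp11b2 UMI below 200 CPM (medians of 20704 and 17673 UMIs) than in cells with none (17111 and 15047 UMIs). The part of depth in the binned levels was not tested.

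**Figure D4:**
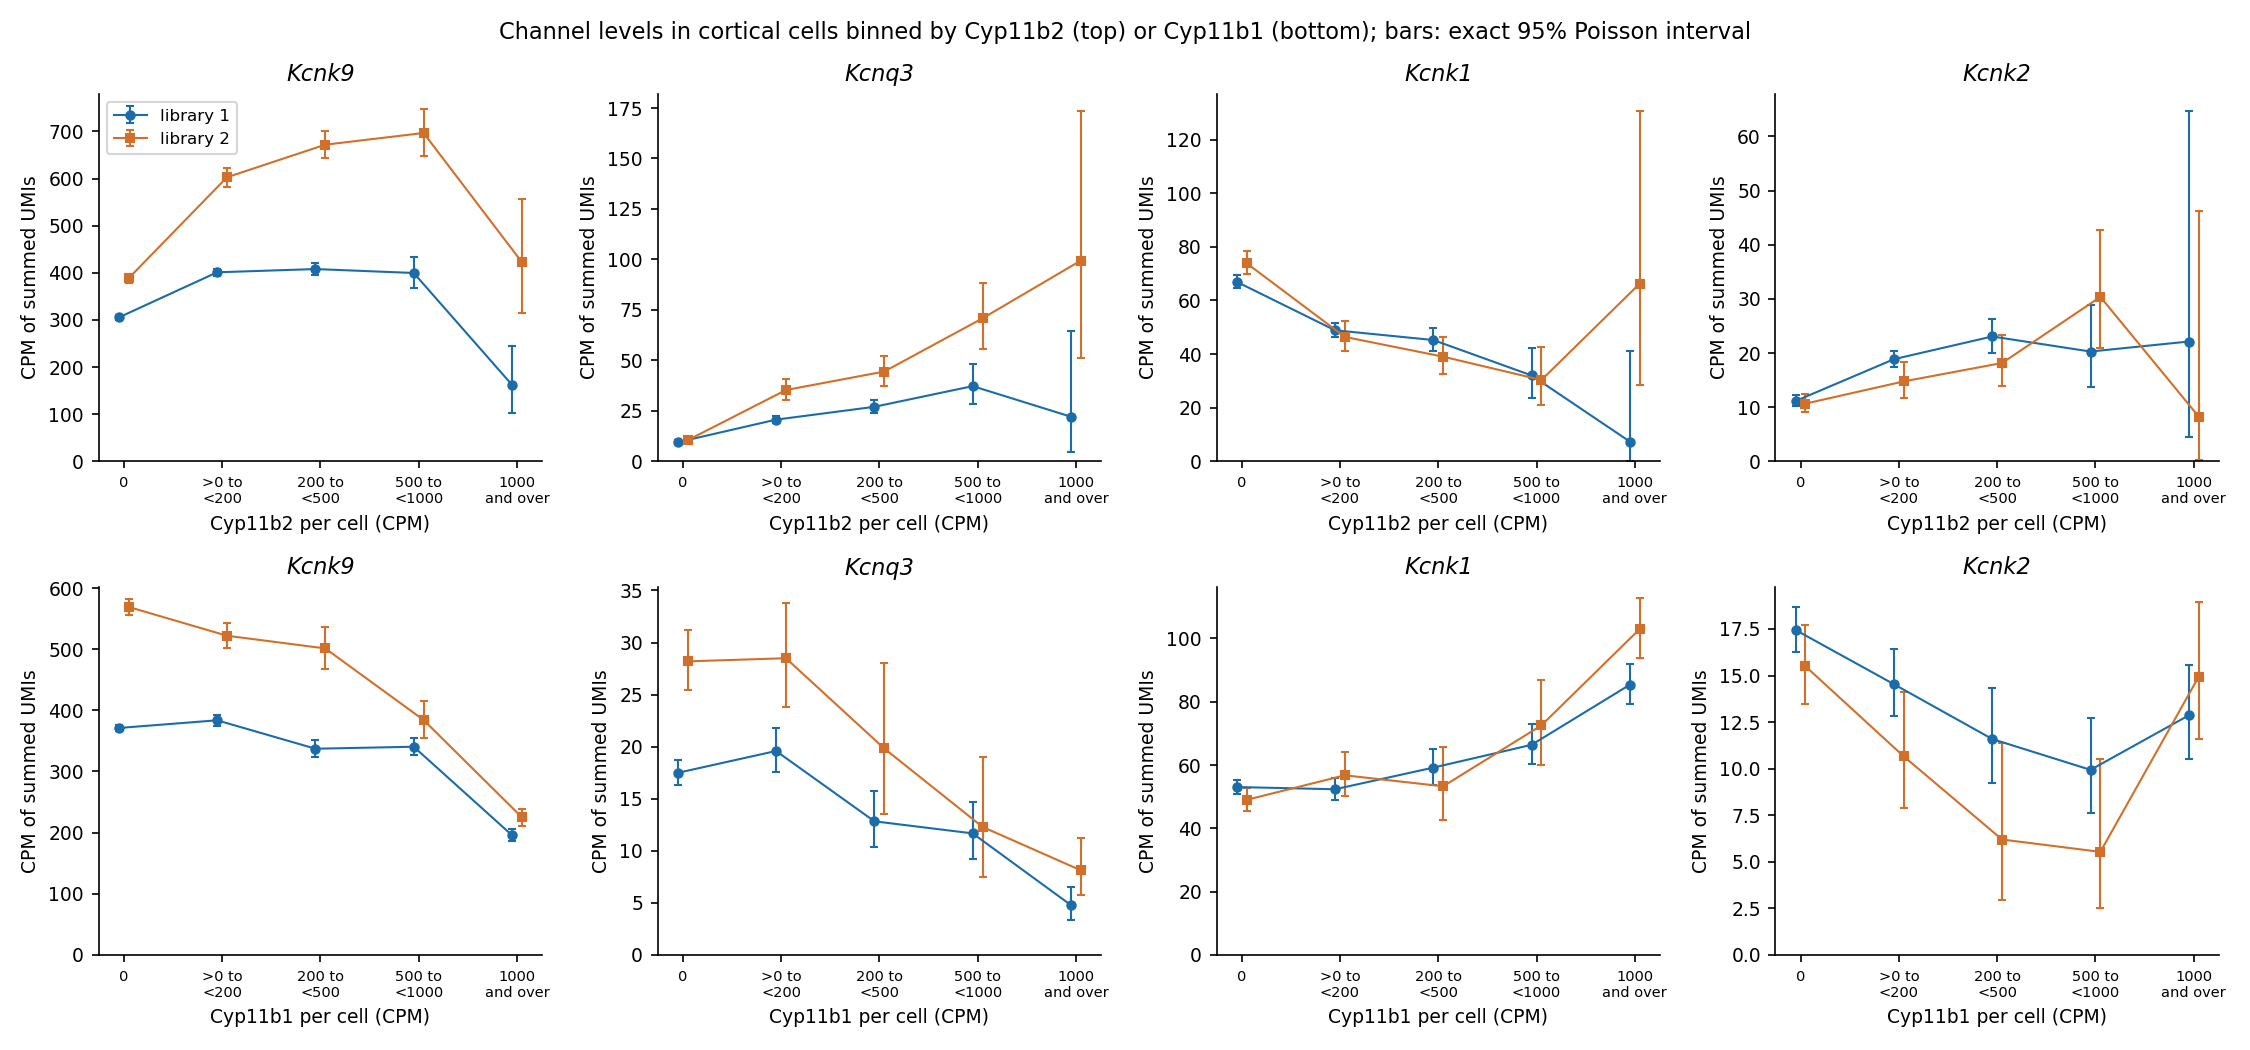
Levels of Kcnk9, Kcnq3, Kcnk1 and Kcnk2 (vertical axes, CPM of summed UMIs, from 0) in cortical cells binned by their CPM of Cyp11b2 (top row) or Cyp11b1 (bottom row), with circles for library 1, squares for library 2 and exact 95% Poisson intervals. Kcnk9 ends at 196 and 225 CPM in the highest Cyp11b1 bin and Kcnq3 reaches 37.3 and 70.9 CPM at 500 to under 1000 CPM of Cyp11b2, and the last Cyp11b2 bin holds 6 and 7 cells.

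Most other potassium channel genes had too few UMIs to test. Of 91 other features whose symbol starts with Kcn, 31 had 0 UMIs in these cells and 17 could be tested, among them the non-coding Kcnq1ot1. Between Cyp11b2-high and Cyp11b1-high cells 6 were higher, 5 were lower and 6 did not pass, where 33.7% of all genes passed, with a median log2 difference of 0.08 against 0.00 over all genes. Kcnk5, the acid-sensitive TASK-2 channel, was higher in Cyp11b2-high cells by 2.06 ± 0.23 (edgeR adjusted p = 3.52e-07), with normalised CPM of 16.4 and 30.2 against 4.2 and 6.8. Kcnj2, an inward rectifier, was higher by 1.81 ± 0.19, and Kcnd2, an A-type channel, by 1.03 ± 0.13. Between Aldh1a1-high and Cyp11b1-high cells 4 were higher, 3 were lower and 10 did not pass, where 14.7% of all genes passed. The median absolute log2 difference was 2.11 over these 17 genes, 1.98 over the 7 channel genes above and 0.39 over all genes. Which genes passed the low-count filter only through the Aldh1a1-high sums was not tested, so these medians are a description only. Kcnq1, a delayed rectifier, was higher there by 3.29 ± 0.34 (edgeR adjusted p = 3.82e-07), Kcnd3 by 2.20 ± 0.44 and Kcnab3, an auxiliary subunit, by 2.11 ± 0.25. In library 1 and library 2 alone Kcnq1 differed by 2.57 and 3.71 and Kcnab3 by 1.4 and 3.0. Kcnq1ot1 was lower by a log2 difference of -1.51 ± 0.15.

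The partners of these channels in membrane voltage and calcium entry also differed between groups. Their list was chosen with earlier results of these data known and holds Agtr1b, a glomerulosa marker above. Its share of calls is therefore a description only. Of 45 listed genes 38 were tested, and 18 were higher and 9 lower in Cyp11b2-high than in Cyp11b1-high cells, where 33.7% of all genes passed, with a median log2 difference of 0.22. Agtr1b and Agtr1a, receptors for angiotensin II, were higher by 3.05 ± 0.10 and 1.16 ± 0.07 (edgeR adjusted p = 2.24e-15 and 5.77e-11), and Atp2b4, a calcium pump, by 1.67 ± 0.19 (1.35 and 2.30 in library 1 and library 2 alone). Atp1b2, a subunit of the sodium pump, was lower at -0.98 ± 0.13, as was the calcium-release channel gene Itpr2 at -0.83 ± 0.14. Between Aldh1a1-high and Cyp11b1-high cells 2 partners were higher and 12 lower, where 14.7% of all genes passed. Plcb4, a phospholipase that acts downstream of Gq, was higher by 2.35 ± 0.28 and Itpr2 by 0.78 ± 0.25. Mc2r, the ACTH receptor, was lower at -2.16 ± 0.22 (-1.60 and -4.22 in library 1 and library 2 alone), Agtr1a at -1.63 ± 0.18 and Cacna1h, a T-type calcium channel, at -1.62 ± 0.22. Cells low in both had 3 partners higher and 12 lower than Cyp11b2-high cells, where 13.7% of all genes passed, and intermediate cells had 9 higher and 2 lower than Cyp11b1-high cells, where 10.9% did. Co-expressing cells had 1 lower than Cyp11b2-high cells, Agtr1b, at -1.05 ± 0.14.

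For each tested channel gene, the most similar of 6564 other genes were found by Pearson's r of log2(CPM + 1) over the 12 sums of groups and libraries. The sums share libraries and cells of 1 tissue, and r is given as a description. Slit3 (0.996) and Fam222a (0.991) were nearest to Kcnk9, and Fat1 (0.988) and Slc12a2 (0.980) to Kcnq3. Susd3 (0.985) and BC003331 (0.981) were nearest to Kcnk1, and Pkm (0.969) and Rab31 (0.965) to Kcnk2. Phlda1 (0.994) and Ajuba (0.993) were nearest to Kcnk3, Cttnbp2 (0.991) and Cdh2 (0.989) to Kcnn2, and Arid5b (0.943) and Ep400 (0.933) to Kcnma1. Without the Aldh1a1-high sums r fell to 0.48 for Phlda1, 0.19 for Ajuba and 0.51 for Cdh2, so these likenesses rested on the Aldh1a1-high cells. For Slit3 with Kcnk9 and Susd3 with Kcnk1 r was then 0.971 and 0.988.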

How the data were processed

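The deposited matrices held UMI counts per gene and cell barcode, which the authors made with Cell Ranger on mm10, per the submitters' processing notes and the file headers (software version 3.1.0). Barcodes under 1000 UMIs or under 500 genes, or over 30% mitochondrial, were dropped. Doublets were scored per library with scrublet in scanpy 1.11.5, and the top 0.8% per 1000 barcodes were removed (203 and 42 cells). Free RNA was not subtracted. Cells under 5000 UMIs (275 and 339) were not grouped, so that 1 UMI is at most 200 CPM. A cell was cortical where its summed steroidogenic markers exceeded each other marker list, and leukocyte-like where the leukocyte list was highest. Of the feature identifiers, 31011 were in GENCODE vM21 and 46 were not.

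UMI sums per group and library (12 sums) were fitted in edgeR 4.0.16 (R 4.3.3, limma 3.58.1) with terms for group and library, TMM scaling, its low-count filter and 5 residual degrees of freedom. The library term pairs sums of the same library. P-values were adjusted by Benjamini-Hochberg over 11661 genes, with a threshold of 0.05. The spread of each gene was drawn toward that of others, with 16.5 prior degrees of freedom. Single-library log2 differences used a prior count of 2. Shares have exact Clopper-Pearson 95% intervals and levels exact Poisson intervals, which cover counting error only. Where no cell had a UMI, the limit given is 3 cells of the group. Other genes were named by a rule: per comparison up to 3 called genes in each direction and list with the largest difference, at least 20 CPM in the higher group and the same sign in both libraries, and the 2 genes most like each member. A gene that the rule took and a sequence are not reported here. The members, lists, group thresholds and tests were chosen with earlier results of these data known. Alternatives covered thresholds, filters, doublets, thinning, RLE scaling, DESeq2 1.42.0, the library term and each library alone. On simulated data the model recovered most changed genes, and its share of false calls was above the nominal threshold.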

Additional observations from a re-analysis of the deposited data

Results flagged for a closer look

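Kcnk6 UMIs appeared only outside the cells compared. Leukocyte-like cells of library 1, which enter no comparison, held 7 Kcnk6 UMIs (19.97 CPM) and those of library 2 held 2 (8.7 CPM), against 0 in all cortical cells, where 3 UMIs would be 0.0268 CPM.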

How the results depend on the processing

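Of the 15 called differences, those whose call an alternative ended are named with that alternative in the results. Without the replicate block (the library term), the members called fell from 4 to 2 for Cyp11b2-high against Cyp11b1-high cells, from 3 to 0 for cells low in both and from 4 to 0 for intermediate cells, and the calls over all genes fell from 3933 to 798, 1599 to 13 and 1273 to 16. They fell from 1709 to 580 for Aldh1a1-high and from 8 to 0 for co-expressing cells. DESeq2 called 1 member for cells low in both and 1 for intermediate cells (834 and 678 of all genes), and thinning left 2 for intermediate cells. Over all genes thinning left 2056 calls for Cyp11b2-high against Cyp11b1-high cells, 685 for Aldh1a1-high cells and 785 for cells low in both. It left 572 for intermediate and 6 for co-expressing cells. Other counts over 1.5 times from the first were 800 with halved thresholds for intermediate cells and the following. For co-expressing cells they were 78 without the low-count filter and 28 in DESeq2. Settings chosen after the data were seen gave 20 for co-expressing cells with Aldh1a1-high cells of at least 2000 CPM. Without the Aldh1a1-high sums co-expressing cells had 28. DESeq2 without these sums gave 54 for co-expressing cells, 1021 for cells low in both and 841 for intermediate cells. Kcnma1 passed for Cyp11b2-high against Cyp11b1-high cells with doubled thresholds (0.0146) or no filter (0.0428), and Kcnk9 passed for cells low in both after thinning (0.0115), without the filter (0.000183) without the Aldh1a1-high sums (0.00759) and with Aldh1a1-high cells of at least 2000 CPM (0.00717).

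No called difference changed sign under any alternative. Single-library values of uncalled differences were left out of the count that follows, and some changed sign. Kcnq3 in co-expressing cells, for example, was -0.21 in the fit and 0.35 in library 2 alone. In the other alternatives 9 uncalled differences changed sign, under 14 settings in all. With halved thresholds these log2 differences were 0.0036 for Kcnk1 in Aldh1a1-high cells, 0.015 for Kcnk3 and -0.015 for Kcnk9 in co-expressing cells, and -0.00104 for Kcnk3 and -0.000984 for Kcnn2 in intermediate cells. With doubled thresholds Kcnk3 was 0.000843 for cells low in both. In co-expressing cells thinning gave -0.15 for Kcnk1, 0.62 for Kcnk2, -0.22 for Kcnk9 and -0.029 for Kcnn2. There, keeping doublets gave 0.0075 for Kcnk2 and -0.049 for Kcnk9, cells from 1000 UMIs gave -0.0088 and no low-count filter -0.022 for Kcnk9. Doubled thresholds left under 10 co-expressing cells in a library, so that comparison could not be fitted. The cause of these changes was not tested. The Aldh1a1-high and co-expressing groups held only 54 and 68 cells.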
